A study of Homo sapiens with 4 samples.

Results

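The SLC25 genes encode the mitochondrial carriers, the largest family of solute transporters of the inner mitochondrial membrane. All genes named SLC25A followed by digits alone were taken, which gave 48 of 54628 genes in the deposited count tables; 49 further names of this family with a suffix are pseudogenes or antisense transcripts and were not taken. The libraries were made from polyadenylated RNA of Panc1, an established cell line grown from a human pancreatic duct carcinoma. The labels give 2 libraries of cells that received siRNA (a short RNA that directs the breakdown of a matching transcript) against HMGB2, a chromatin protein, and 2 libraries of cells that received scramble siRNA. Every sample is the same line and the labels name no further agent. Whether the libraries of a group came from separate cultures is not said, so p-values reflect only how far these 4 libraries vary, and that variation may be technical.

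A carrier of this family is a single chain built from a repeated module, and most members exchange one solute for another across the inner membrane. By this route ADP and phosphate enter and ATP leaves, and carboxylates, amino acids, nucleotides, cofactors and iron are moved between cytosol and matrix. The precursors are made in the cytosol and inserted by the TOM complex, small TIM chaperones and the TIM22 complex.

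HMGB2 went against the labels. Its counts were 4021 and 2746 where the label is HMGB2 siRNA, and 346 and 319 where it is scramble. As CPM (read counts scaled to a common library total, with TMM factors) this was 128 and 134 against 15.7 and 15.3, and the log2 fold change was 3.07 ± 0.08 (SE; edgeR, adjusted p = 1.54e-33). All adjusted p-values below are from the edgeR quasi-likelihood fit with the Benjamini-Hochberg method over all genes tested. The headers of the count columns also name the other treatment in 4 of 4 tables. Below, higher and lower always describe the HMGB2 siRNA label (high HMGB2) relative to the scramble label (low HMGB2).

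Total gene counts ran from 20340695 to 31852391, so a gene at 0 could still have had 3 counts, or 0.0942 to 0.147 CPM. This limit is for counting error alone. The libraries labelled HMGB2 siRNA and scramble differed within their group by 3.1 and 5.68 times the sampling noise (chi-square per degree of freedom). Transcripts of the mitochondrial genome took 4.56 ± 0.18% of the counts (SD, n = 2) under the HMGB2 siRNA label and 5.31 ± 0.073% (SD, n = 2) under the scramble label, and the part of this difference in the carrier results was not tested. The keratins KRT7, KRT8, KRT18 and KRT19 together had 4514 to 4567 CPM in the first group and 3246 to 4166 CPM in the second, of which KRT7 had only 2.59 to 4.74 CPM. Of the mesenchymal markers, VIM had 2155 to 2477 CPM, ZEB1 34.9 to 41.2 CPM and CDH2 7.73 to 12.1 CPM over all libraries. Of markers of other cells, 4 of 4 endocrine and 2 of 4 acinar genes were at 0 in all libraries, and the blood markers CD3E and HBB were at 0 while CD68 had 98.7 to 121 CPM. Of the fibroblast markers DCN was at 0 and COL1A1 had 55.2 to 76.7 CPM, and the endothelial markers together reached at most 0.191 CPM.

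Of the 48 carrier genes, 39 had enough counts to be tested and 9 did not. Where HMGB2 was high, under the HMGB2 siRNA label, 7 were higher, 7 were lower and 25 did not pass. Over all 15161 genes tested, 16.7% were called higher and 14.1% lower, or 30.8% in all, against 17.9%, 17.9% and 35.9% of the tested carriers. The share of carriers called was therefore close to that of genes in general. On the log2 scale the tested carriers had a median change of 0.00 and all genes one of -0.01, and the median size without sign was 0.17 and 0.21. With upper-quartile or total-count scaling 5 carriers were higher and 8 lower (33.3%, against 32% and 30.7% of all genes). The groups did not overlap for 26 of 39 carriers (66.7%), 14 of them higher and 12 lower. Over all tested genes the shares were 63.7% in all, 32% higher and 31.6% lower. Without replicate 1 or replicate 2 labelled HMGB2 siRNA, 1 library was left under that label. Fewer carriers were then called, and fewer of all genes tested as well.

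**Figure D1:**
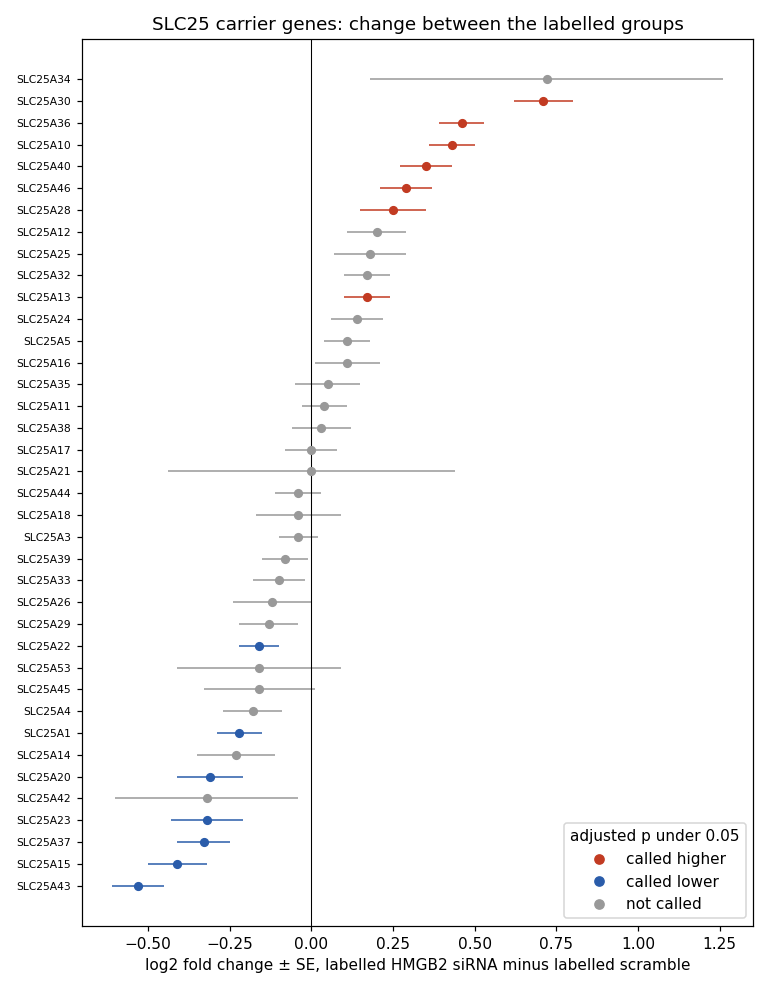
The log2 fold change (labelled HMGB2 siRNA minus labelled scramble, horizontal axis) of 38 of the 39 tested SLC25 genes, with its standard error as a bar and colours for the call at an adjusted p under 0.05. The 7 genes called higher and the 7 called lower stand on both sides of 0, from -0.53 for SLC25A43 to 0.71 for SLC25A30, and the wide bar of SLC25A34 belongs to a gene with 6 to 18 counts.

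The levels spanned a wide range. On the RPKM scale (reads scaled to the library total and to the length of the listed exons), SLC25A5, the main adenine nucleotide translocator of dividing cells, came first with 399 and 384 under the HMGB2 siRNA label and 377 and 347 under the scramble label. It took 37.1% to 39.9% of the summed RPKM of all members in each library. This sum holds SLC25A6 at 0 and SLC25A51 and SLC25A52 near 0, where reads may not have been assigned, as described below. The share and the rank of SLC25A5 are thus those of counted reads only. SLC25A1, the citrate carrier, followed with 91.0, 84.7, 105 and 100 RPKM in the same order of libraries. Its groups did not overlap, and its values did not overlap those of SLC25A5 or of the next gene.

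SLC25A3, the phosphate carrier that feeds ATP synthesis, had 72.7, 73.2, 78.1 and 72.2 RPKM. SLC25A10, the dicarboxylate carrier, had 64.3, 61.2, 49.2 and 44.2 RPKM, and SLC25A11, the oxoglutarate carrier, had 50.9, 52.0, 50.4 and 49.6 RPKM. SLC25A10 lay above SLC25A11 in the libraries labelled HMGB2 siRNA and below it in those labelled scramble. The mean order went on with SLC25A22 (45.3), SLC25A39 (39.8), SLC25A13 (27.2), SLC25A32 (18.6) and SLC25A17 (16.4 RPKM over all libraries). SLC25A22 and SLC25A39 did not overlap in any pair of libraries within a group. From SLC25A33 (15.5 RPKM) to SLC25A18 (2.71 RPKM) the levels were closely spaced, and neighbours such as SLC25A44 (8.36) and SLC25A38 (8.31 RPKM) lay within the spread of their libraries. SLC25A45, SLC25A26, SLC25A42, SLC25A53, SLC25A21 and SLC25A34 were lowest among the tested genes, from 1.83 down to 0.114 RPKM. The listed exon length counts every annotated exon, also ones a transcript in use may lack. For SLC25A24 and SLC25A26 it also counts exons on an alternative sequence of the assembly, so their RPKM values (7.04 and 1.12) are low estimates.

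**Figure D2:**
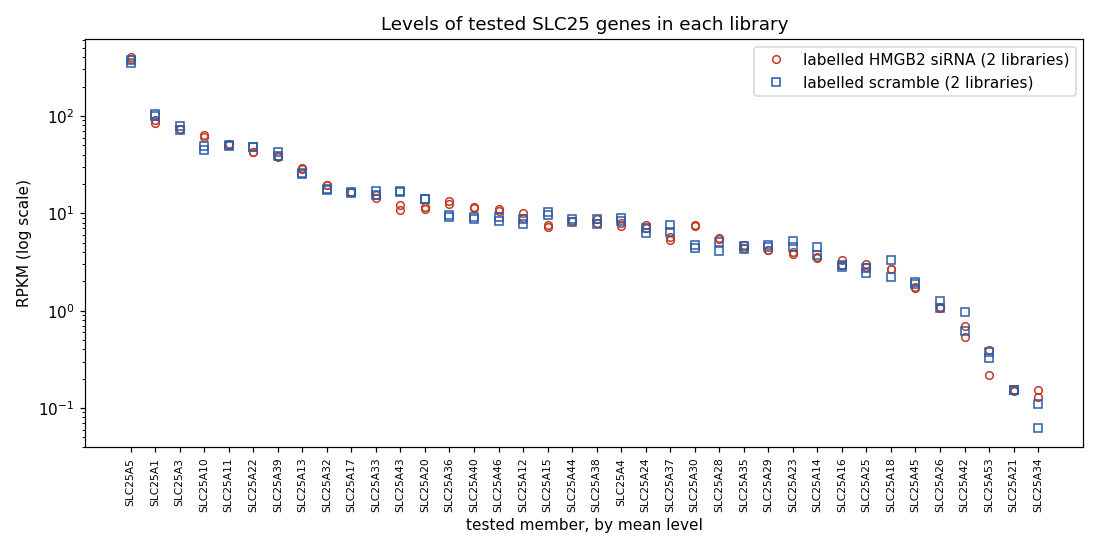
The level of 38 of the 39 tested SLC25 genes in RPKM on a log axis, in order of its mean, with 1 point for each library (circles for labelled HMGB2 siRNA, squares for labelled scramble). SLC25A5 stands apart at 347 to 399 RPKM, and the differences between the groups are small beside the range of levels between genes.

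Several members at or near 0 are listed in a way that bears on counting. SLC25A6, an adenine nucleotide translocator, had 0 counts in 4 of 4 libraries. Its exons are listed on both X and Y (GRCh38 chromosomes X and Y, 1386152 to 1392113 on each), and of 51 genes so listed 47 had 0 counts in every library. A count of 0 for SLC25A6 is thus shared with nearly all genes of this kind, and the gene was left out of every statement on direction. SLC25A51, a carrier of NAD, had 0, 1, 0 and 0 counts. Of its exon bases 89.1% (3999 bases; chromosome 9, 37877575 to 37904127) are also listed for PAICSP1 on the opposite strand, which had 504, 321, 306 and 346 counts. In GENCODE transcripts, 15.3% of the words of 50 bases in SLC25A51 also stand in a gene at another place, most of them in SLC25A52, and 29.3% of those in SLC25A52 do. SLC25A52 had 0, 1, 0 and 1 counts. For these genes a low count cannot be told apart from reads that were not assigned.

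SLC25A31, a translocator known from testis, had 0 counts in all 4 libraries. SLC25A2, SLC25A41, SLC25A47 and SLC25A48 had at most 6 counts in any library. SLC25A41 shares 87 of its exon bases (5.1%) on the same strand with SLC25A23, which had 503, 341, 414 and 457 counts. SLC25A27, a brain carrier related to the uncoupling proteins, had 8 and 7 counts against 2 and 0, too few for the test.

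The carriers were also taken by class, with 2 to 13 tested members each. The shares called in these classes were not tested against the 30.8% over all genes tested. Of 13 tested carriers of nucleotides, phosphate and cofactors, 1 was higher, 1 was lower and 11 did not pass. Their median was 0.11 on the log2 scale. SLC25A36 (chromosome 3, 140941836 to 140980995, plus strand), which moves pyrimidine nucleotides, had 87.2 and 80.8 CPM under the HMGB2 siRNA label and 59.6 and 62.6 CPM in libraries labelled scramble. Both of the first lay above both of the second. The log2 fold change was 0.46 ± 0.07 (SE; edgeR adjusted p = 1.21e-06). Its paralog SLC25A33, also a pyrimidine nucleotide carrier, had 59.9 and 55.8 against 59.1 and 65.1 CPM, with overlapping groups and no call (adjusted p = 0.348). The ratio of SLC25A36 to SLC25A33 in RPKM was therefore 0.87 in each library labelled HMGB2 siRNA and 0.60 and 0.57 in those labelled scramble, a difference with no test of its own. In GENCODE transcripts, 21.6% of the words of 50 bases in SLC25A33 also stand in a gene at another place. Its level and this ratio may thus miss reads that were not assigned.

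SLC25A23 (chromosome 19, 6436081 to 6459792), which exchanges ATP-Mg for phosphate, had 16.0 and 16.6 against 18.8 and 21.9 CPM. It fell by 0.32 ± 0.11 on the log2 scale (SE; edgeR adjusted p = 0.0187, with 0.000953 to 0.216 over the alternatives), and the call was lost with DESeq2 and without each library in turn other than scramble replicate 1. Its relatives SLC25A24 and SLC25A25 did not pass, with log2 fold changes of 0.14 ± 0.08 and 0.18 ± 0.11 (SE), though SLC25A24 was called higher when scramble replicate 2 was left out. The SLC25A24 to SLC25A23 ratio was 2.01 and 1.79 against 1.40 and 1.37 in RPKM. These ratios are low estimates, since the listed length of SLC25A24 is 9178 bases, of which 4589 lie on the chromosome. The length lowers the ratio alike in all libraries.

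The abundant members of this class did not pass the test. SLC25A5 (chromosome X, 119468444 to 119471396) had 522 and 502 against 492 and 454 CPM, with a log2 change of 0.11 ± 0.07 (SE; edgeR adjusted p = 0.191, and 0.00909 without scramble replicate 1). The groups did not overlap, but the gap between them was within the error of the fit. SLC25A4, the translocator of heart and muscle, had 32.4 and 35.4 against 37.2 and 39.3 CPM, a change of -0.18 ± 0.09 on the log2 scale (SE; adjusted p = 0.113), and was called lower without scramble replicate 1 and with upper-quartile or total-count scaling. SLC25A4 gave 1.80% and 2.04% of the RPKM of the translocators in the first group and 2.19% and 2.50% in the second, with SLC25A6 and SLC25A31 listed at 0. SLC25A3 had 461 and 464 against 496 and 458 CPM and overlapped between groups. SLC25A17, the carrier of peroxisomes, was the most even, with 42.5 and 42.6 against 42.1 and 42.9 CPM. SLC25A32, which carries folate and FAD, had a log2 fold change of 0.17 ± 0.07 (SE) and did not pass (adjusted p = 0.0894), and SLC25A16 and SLC25A42 did not pass, at 0.11 and -0.32 on the log2 scale.

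Among 11 tested carriers of amino acids, S-adenosylmethionine and glutathione, 2 were higher, 2 were lower and 7 did not pass, with a median of -0.04. SLC25A15 (chromosome 13, 40789611 to 40812460, plus strand), the ornithine carrier that links the urea cycle and polyamine precursors across the membrane, had 29.2 and 27.3 against 38.9 and 36.4 CPM. Both libraries of the first group were below both of the second. The log2 fold change was -0.41 ± 0.09 (SE; edgeR adjusted p = 0.000227). SLC25A40 (chromosome 7, 87833568 to 87876360, minus strand), which takes part in glutathione import, had 47.0 and 45.7 against 35.5 and 37.4 CPM. Its log2 fold change was 0.35 ± 0.08 (SE; edgeR adjusted p = 0.000689, with 4.08e-05 to 0.0522 over the alternatives), and the call was lost without replicate 1 labelled HMGB2 siRNA (0.0522). Its paralog SLC25A39, the main glutathione importer, had 129 and 126 against 140 and 129 CPM and did not pass (adjusted p = 0.403). The 2 paralogs had an RPKM ratio of 0.30 and 0.29 against 0.21 and 0.24.

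Of the aspartate and glutamate exchangers of the malate-aspartate shuttle, 1 was called. SLC25A13 (citrin) had 117 and 114 against 100 and 104 CPM, with a log2 change of 0.17 ± 0.07 (SE; edgeR adjusted p = 0.0415, with 0.0106 to 0.36 over the alternatives). That call was lost in 8 of 13 alternatives, among them upper-quartile and total-count scaling, DESeq2, thinned libraries and 3 of the 4 fits without a library. SLC25A12 (aralar), with 36.5 and 40.4 against 35.2 and 31.7 CPM, was the member just outside the threshold (adjusted p = 0.0839, and 0.00807 without scramble replicate 1). The RPKM ratio of SLC25A13 to SLC25A12 was 3.23 and 2.85 against 2.88 and 3.31, with overlapping groups. SLC25A22 (chromosome 11, 790475 to 798281), a glutamate carrier, had 154 and 152 against 172 and 172 CPM and fell by 0.16 ± 0.06 on the log2 scale (SE; edgeR adjusted p = 0.0457, with 0.00771 to 0.374 over the alternatives). The SLC25A22 call was lost in 5 of 13 alternatives: without either library labelled HMGB2 siRNA, with DESeq2 (0.0598), with no filter on low counts (0.148) and with the replicate block (0.0714). Of its exon bases, 12.6% are shared with PANO1 on the other strand. For SLC25A29 the share with YY1, also on the other strand, was 30.3%. SLC25A18, SLC25A26, SLC25A29, SLC25A38 and SLC25A44, carriers of glutamate, S-adenosylmethionine, basic amino acids, glycine and branched-chain amino acids, had log2 fold changes from -0.13 to 0.03 and did not pass. The libraries of SLC25A18 labelled scramble, with 18.5 and 12.4 CPM, lay on either side of the others at 15 and 15.1, and it was called lower when scramble replicate 2 was left out.

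**Figure D3:**
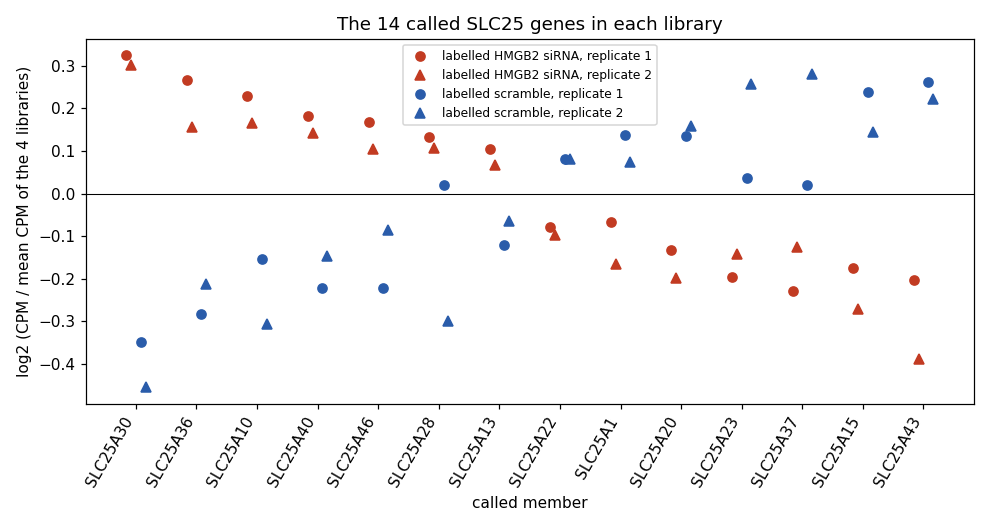
Each of the 14 called SLC25 genes in each library, as log2 of its CPM over the mean of the 4 libraries; colours give the labelled group and symbols the replicate number. The groups do not overlap for any of the 14, and the scramble libraries of SLC25A28, SLC25A23 and SLC25A37 stand far apart from each other.

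Of 5 tested carboxylate and acylcarnitine carriers, 1 was higher, 2 were lower and 2 did not pass. SLC25A10 (chromosome 17, 81712284 to 81721012, plus strand), which exchanges malate and succinate for phosphate, had 142 and 136 against 109 and 98.0 CPM. It was 1.34-fold higher (log2 fold change 0.43 ± 0.07, SE; edgeR adjusted p = 1.86e-06). SLC25A1 (chromosome 22, 19175581 to 19178736, minus strand), which exports citrate for fatty acid and sterol synthesis, went the other way with 165 and 154 against 190 and 182 CPM. It fell by 0.22 ± 0.07 on the log2 scale (SE; edgeR adjusted p = 0.00658, with 0.000265 to 0.296 over the alternatives), and the call was lost without replicate 1 or replicate 2 labelled HMGB2 siRNA. The log2 change was then -0.27 ± 0.11 (SE; adjusted p = 0.0578) and -0.17 ± 0.10 (SE; 0.296), so that without replicate 1 the change was larger and its error wider. The RPKM ratio of SLC25A10 to SLC25A1 was 0.71 and 0.72 against 0.47 and 0.44.

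SLC25A20 (chromosome 3, 48856926 to 48898882), which brings acylcarnitines to fatty acid oxidation, had 20.5 and 19.6 against 24.7 and 25.1 CPM. It fell by 0.31 ± 0.10 on the log2 scale (SE; edgeR adjusted p = 0.0131, with 0.00413 to 0.186 over the alternatives), and the call was lost with DESeq2 and without either library labelled HMGB2 siRNA. SLC25A11 had 101 and 103 against 99.9 and 98.3 CPM and did not pass (adjusted p = 0.698). SLC25A21, the oxodicarboxylate carrier, had 16 to 24 counts and a log2 fold change of 0.00 ± 0.44 (SE). It shares 40.4% of its exon bases with PAX9 on the opposite strand.

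The iron carriers, known as mitoferrins, also went opposite ways. SLC25A37 (chromosome 8, 23528956 to 23575463), known from red cell precursors, had 43.1 and 46.3 against 51.2 and 61.3 CPM and fell by 0.33 ± 0.08 on the log2 scale (SE; edgeR adjusted p = 0.0012, with 6.93e-08 to 0.104 over the alternatives). The call was lost without replicate 1 labelled HMGB2 siRNA (0.104), and without scramble replicate 2 the change was -0.20. SLC25A28 (chromosome 10, 99610522 to 99659507), the form found in most tissues, had 29.5 and 29 against 27.3 and 21.9 CPM and was the called member nearest the threshold (log2 fold change 0.25 ± 0.10, SE; edgeR adjusted p = 0.0459, with 0.000201 to 0.451 over the alternatives). Its call was lost in 7 of 13 alternatives, and without scramble replicate 2 its log2 fold change was 0.11. For both mitoferrins scramble replicate 2 was the library farthest from the HMGB2 siRNA group.

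SLC25A30 (chromosome 13, 45393316 to 45434016, minus strand), a carrier related to the uncoupling proteins, had the largest called change of the family. Its 1190 and 766 counts under the HMGB2 siRNA label, or 37.9 and 37.3 CPM, stood against 523 and 460 counts, or 23.8 and 22.1 CPM, under the scramble label. It was 1.64-fold higher (log2 fold change 0.71 ± 0.09, SE; edgeR adjusted p = 1.11e-08). On the opposite strand SLC25A30-AS1 shares 10.1% of its exon bases and had 0, 0, 1 and 0 counts. The related SLC25A14 had 14.2 and 14.4 against 18.4 and 15.2 CPM and did not pass (adjusted p = 0.127), and was called lower when scramble replicate 2 was left out.

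Among the 6 tested carriers of other or unsettled substrate, 1 was higher, 1 was lower and 4 did not pass. SLC25A43 (chromosome X, 119399326 to 119454478, plus strand), whose solute is not settled, had 47.9 and 42.1 against 66.1 and 64.3 CPM, the largest called fall of the family at -0.53 ± 0.08 on the log2 scale (SE; edgeR adjusted p = 2.92e-07). It lies on the same strand and just before SLC25A5, which did not pass. SLC25A46 (chromosome 5, 110738145 to 110765157), an outer membrane protein that acts on mitochondrial shape, had 54.5 and 52.1 against 41.6 and 45.7 CPM and a log2 fold change of 0.29 ± 0.08 (SE; edgeR adjusted p = 0.0033, with 6.49e-05 to 0.136 over the alternatives). The SLC25A46 call was lost without replicate 1 labelled HMGB2 siRNA. SLC25A34, SLC25A35, SLC25A45 and SLC25A53 did not pass. SLC25A34 had the highest fitted value of any member (0.72 ± 0.54, SE) from 18 and 14 against 6 and 10 counts, with an adjusted p of 0.336.

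Of the 14 calls, 5 held in all 13 alternatives: SLC25A30, SLC25A36 and SLC25A10 higher, and SLC25A43 and SLC25A15 lower. The other 9 lost the call in at least 1 alternative, and none of the 14 changed sign in any. Without replicate 1 labelled HMGB2 siRNA all 9 lost the call. That fit has 1 library under this label, which is assumed to vary like the scramble pair, the pair that differed more. Standard errors of the 9 rose from 0.06 to 0.11 in the full fit to 0.11 to 0.15, while their log2 changes moved by at most 0.05. Without scramble replicate 2 it was the changes of SLC25A23 and SLC25A28 that moved, by up to 0.14. SLC25A23 went from -0.32 to -0.21 and SLC25A28 from 0.25 to 0.11, with errors of 0.11 and 0.10 in both fits. In libraries thinned to the smallest total, SLC25A13 and SLC25A28 lost the call.

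**Figure D4:**
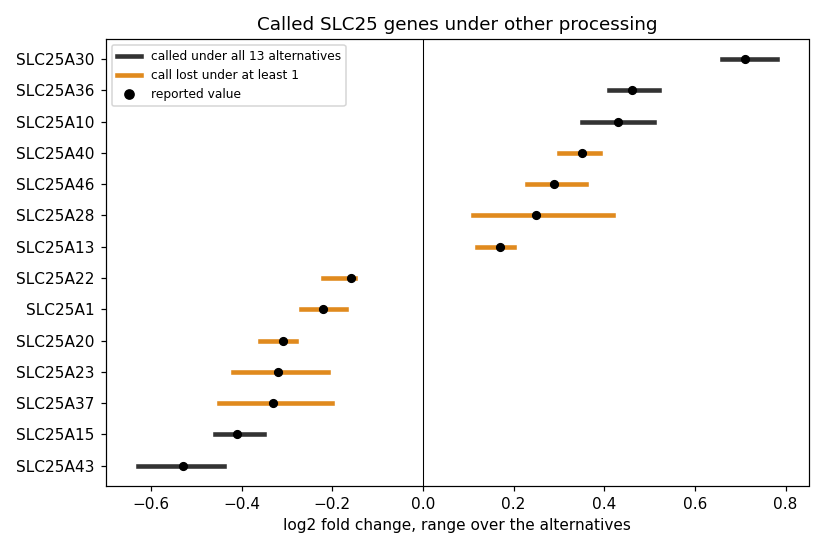
The log2 fold change of each called SLC25 gene (points) and its range over 13 alternative analyses (lines). Dark lines mark the 5 genes called in every alternative and orange lines the 9 that lost the call in at least 1; no line crosses 0.

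Certain heptamers in the 3′ untranslated region (3′UTR) were searched for in the carriers. The first is GACAAAG. Another of these words reads ATAGTAA, and the last one searched for here is written AATAGTA. They were picked earlier on the fold changes of these same genes, as words of genes that are higher where HMGB2 is high. The shares by direction thus follow in part from that choice, and what follows is a description and no test. The longest annotated 3′UTR of GENCODE 29 was used, and all 39 tested carriers had one. At least 1 of the words stood in 3 of the 7 carriers called higher, 0 of the 7 called lower and 5 of the 25 not called. Over all 12112 tested genes with a 3′UTR the share was 26.4%, and it was 41.5% among genes called higher and 19.5% among those called lower. The median 3′UTR length of these 3 sets was 1385, 1636 and 1523 bases. The carriers with a word among those called higher were SLC25A30, SLC25A36 and SLC25A40, which are 3 of the 4 with the largest called rises. The exception was SLC25A10, which had none in its 935 bases. The 3 with a word had 3′UTRs of 2658, 3480 and 2681 bases, and the other carriers called higher had 327 to 1002 bases. SLC25A37, called lower, had no word in 3608 bases. The part of 3′UTR length in these shares was not tested. The other 5 with a word, SLC25A3, SLC25A11, SLC25A24, SLC25A33 and SLC25A53, had a median log2 fold change of -0.04.

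The share among carriers called higher (42.9%) was close to that of all genes called higher. The sites in the 3 of them that hold a word are shown so that the letters around each can be read (sense strand, 5′ to 3′, the heptamer in capitals, GRCh38). The first 2 lines are from SLC25A30 at chr13:45394277-45394305 and chr13:45395112-45395140, and the third is from the same gene at chr13:45393438-45393466. Those of SLC25A36 are at chr3:140976586-140976614 and chr3:140977396-140977424, where at the latter place ATAGTAA overlaps AATAGTA, and that of SLC25A40 is at chr7:87834312-87834340.
SLC25A30 site at base 1680 of the 3′UTR: gtgagagctaaGACAAAGtcatcaaaaag
SLC25A30 site at base 845: aatgaagaacaAATAGTAgctgctgctac
SLC25A30 site at base 2519: catgtgctagaAATAGTAtgcattatata
SLC25A36 site at base 144: ttgtaggaattATAGTAAtcacaccacat
SLC25A36 site at base 954: ttgtaaagaaaATAGTAAtttaaagtttt
SLC25A40 site at base 1920: atttgtattaaAATAGTAcctagaaaaat
SLC25A11 carries GACAAAG at base 480 of its 3′UTR (chr17:4937244-4937272) and is shown as a counterexample, since its level differed little between groups.
SLC25A11 site at base 480: ggaggagactgGACAAAGaagctggagaa

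Promoters of RefSeq (GRCh38.p14, a window of 300 bases around the start) were held for 40 of the 48 members. They were searched on both strands for the words of NRF1 and YY1, for CCGGAAG (ETS factors), for CCAAT and for CACGTG (the E-box). The NRF1 and YY1 words were found in 0 of the 33 tested members with a promoter, and in 2.35% and 1.94% of 11136 promoters of tested genes. CCGGAAG stood in 7 of the 33 (21.2%) against a share of 19.1%, in 1 of 6 members called higher and 1 of 6 called lower. CCAAT stood in 51.5% against 36.1%, in 4 of 6 called higher and 2 of 6 called lower. CACGTG stood in 5 of the 33 (15.2%) against 9.99%, in 3 of 6 members called higher and 0 of 6 called lower. It also stood in SLC25A33 and SLC25A38, which did not pass, with log2 fold changes of -0.10 and 0.03. SLC25A31 and SLC25A51, which were not tested, held it too. The shares among all genes called higher or lower were not taken, and the splits of these few members were not tested. The 3 are shown, on the strand of the gene, because they are the called carriers found with this word (the E-box in capitals): SLC25A13 at chr7:96322235-96322264, SLC25A36 at chr3:140941681-140941710 and SLC25A46 at chr5:110738948-110738977.
SLC25A13 promoter: gcgcagcggggtCACGTGtccctgtccagc
SLC25A36 promoter: gcccgtagggatCACGTGaaagaacactgc
SLC25A46 promoter: agaggctataatCACGTGctccgaagactt
The SLC25A46 stretch lies inside the span listed for this gene in the counts (110738145 to 110765157). Its promoter window thus follows another start than the one listed there. A match is a word in a window and says nothing of binding.

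Carrier genes with other names, import genes and linked enzymes were set beside the family. Of UCP2, UCP3, MTCH1 and MTCH2, which belong to the same fold, 1 was called: MTCH1, an outer membrane insertase-like protein, with 309 and 295 against 277 and 253 CPM (log2 fold change 0.19 ± 0.07, SE; edgeR adjusted p = 0.022). UCP2, a carrier of the uncoupling protein branch, had 57.9 and 53.6 against 49.2 and 49.8 CPM and did not pass (adjusted p = 0.0786).

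Of 15 tested genes of the carrier import route, 3 were higher, 3 lower and 9 did not pass, with a median of -0.04. TOMM70, the outer membrane receptor for carrier precursors, had 155 and 157 against 121 and 117 CPM and was 1.31-fold higher. TIMM29, a subunit of the TIM22 complex, had 13.8 and 13.5 against 10.2 and 8.74 CPM and was 1.44-fold higher. The small TIM genes TIMM10B and TIMM8A went down, with log2 fold changes of -0.52 ± 0.07 and -0.31 ± 0.09 (SE; edgeR adjusted p = 1.77e-07 and 0.00373). The share called was 40% against 30.8% over all genes tested, where calls also went in both directions.

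Among 22 tested genes of other mitochondrial membrane transport, 3 were higher, 2 lower and 17 did not pass. The share called was 22.7% against 30.8% over all genes tested. ABCB6, a porphyrin transporter, was 1.43-fold higher, and MPC2, a subunit of the pyruvate carrier, was 1.18-fold higher. SFXN4 of the sideroflexins had 64.3 and 67.8 against 86.9 and 87.2 CPM, with a log2 change of -0.40 ± 0.07 (SE).

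Of 31 tested enzymes that make or use the carried solutes, 8 were higher, 3 lower and 20 did not pass. This was 35.5% called against 30.8% over all genes tested, and the median was 0.04 on the log2 scale. NNT, which makes NADPH in the matrix, had 118 and 119 against 91.1 and 88.5 CPM and was 1.32-fold higher. IDH3A, a subunit of the NAD-dependent isocitrate dehydrogenase, was 1.40-fold higher, MDH1, the cytosolic malate dehydrogenase of the shuttle served by SLC25A13 and SLC25A11, 1.22-fold, and SHMT2, the mitochondrial serine hydroxymethyltransferase, 1.23-fold. These 4 had edgeR adjusted p from 4.56e-06 to 0.000473.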

How the data were processed

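The deposited values are unnormalized read counts per gene, 1 table per library, per the file headers. STAR 2.7.31, SAMtools 1.9, featureCounts of Subread 1.6.3, DESeq2 and the build hg38 (GRCh38) are named in the submitters' processing notes; how strand and multimapping reads were treated is not given in the sources used here. Tables were joined to samples as deposited and to groups by label. Counts of 15161 genes (filterByExpr, smallest count 10, total 15) were tested with edgeR 4.0.16 in R 4.3.3 (glmQLFit, glmQLFTest, TMM, group as only term), with Benjamini-Hochberg adjustment over all genes and a threshold of 0.05. The SE of an edgeR log2 fold change was derived as its size divided by the square root of the F statistic. A permutation of 2 against 2 libraries cannot give a two-sided p below 0.333. In simulated counts for this comparison (14900 genes) 62.5%, 86% and 98% of genes changed 1.5-fold, 2-fold and 4-fold were recovered, with 7 false calls. At 1.25-fold, the smallest change simulated, 44% were. Of the 14 called carriers 7 changed by at least 1.25-fold, and the changes of the others were smaller than any simulated. Only 48 to 50 tested genes were changed at each size, while 30.8% of genes were called in the data. The adjustment depends on how many genes change, so these shares and false calls need not hold for the data. Per-library values were planned for members called with a log2 change of at least 0.32, the 5 with the highest RPKM and the threshold's neighbours, and related genes by the smallest p; the other called members were added once their values were known. Members and lists were chosen with earlier results of these data known. Alternatives were other scalings and filters, DESeq2 1.42.0, limma-voom (limma 3.58.1), a replicate block, thinning and leaving out each library. Sequences came from GENCODE 29 and RefSeq. No table of the authors' own tests was used. Some genes given by these rules stay in the counts and are not reported here by name or drawn.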

Additional observations from a re-analysis of the deposited data

How the results depend on the processing

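The log2 fold change of HMGB2 was called in all 13 alternatives, from 3.02 to 3.11. With DESeq2 5 carriers were higher and 4 lower (23.1%, against 21.2% of all genes). Leaving out 1 library at a time gave 3 to 8 carriers higher and 2 to 8 lower. SLC25A11, which was not called, turned to -0.01 with upper-quartile and with total-count scaling, and SLC25A3 ran from -0.10 without scramble replicate 2 to 0.02 without scramble replicate 1; neither was called there. The labels number the libraries in both groups, but the replicate differences of the groups were uncorrelated over 15161 genes (r = -0.014), so the numbers were not taken as pairs; with the replicate block 6 carriers were higher and 6 lower, and SLC25A13 and SLC25A22 lost the call. Over all genes 54.3% of calls were higher with TMM, 42.0% with upper-quartile and 43.3% with total-count scaling. All-gene calls were 2536 higher and 2135 lower, 1923 and 1284 with DESeq2, 1481 and 903 without replicate 1 and 1603 and 1024 without replicate 2 labelled HMGB2 siRNA. Depth limits SLC25A21, SLC25A34, SLC25A42 and SLC25A53, whose standard errors were 0.25 to 0.54.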
